A study of Drosophila melanogaster with 40 samples.

Results

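Polysome gradients of untreated *smaug*-mutant embryos were examined on their own, to describe how the mRNAs of embryos that lack maternal Smaug divide between polysomes and free mRNA. The arrays were those of pools 1, 3 and 4 of the 3 *smaug*-mutant gradients, or 9 of the 40 arrays of the series, and each measured the same 6524 transcripts. The embryos were laid by mothers homozygous for the smaug1 allele, the smg1 of the sample labels, raised at 25 °C and collected 0 to 2 h after egg laying. The gradients are labelled as biological replicates, and each holds RNA of many embryos. For comparison there were 3 gradients of wild-type embryos of the same age, 2 of smg1 lysate treated with puromycin and 2 of smg1 lysate treated with cycloheximide. The drug-treated lysates were made in another buffer, and same-numbered puromycin and cycloheximide gradients shared a lysate. The lysis buffer of the untreated gradients also held cycloheximide. Both drug groups thus carry the same *smaug* mutation, and no gradient of drug-treated wild-type lysate was analysed here.

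Sucrose gradients sort mRNAs by mass, most of which is that of bound ribosomes. An mRNA without ribosomes stays near the top, whereas one that is being translated by many ribosomes sediments toward the bottom as a polysome. In the first hours of fly development the embryo lives on mRNAs loaded by the mother, and much of its gene control works by holding these mRNAs back from ribosomes or by recruiting them. Smaug, made from maternal mRNA, recognises stem-loops in its target mRNAs and silences them. Puromycin ends nascent chains early and so strips ribosomes from mRNA, whereas cycloheximide freezes ribosomes in place.

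Pool 1 was the top 4 mL of the gradient and holds free mRNAs, pool 2 was the next 2 mL and holds a mixture, and pools 3 and 4, of 3 mL each, hold polysomal mRNAs. Each array was centred on its median. The centred translation index of a transcript in a gradient was then the mean of its log2 levels in pools 3 and 4 minus its log2 level in pool 1. A centred index of 1 thus means that the ratio of polysomal to free signal was higher by a factor of 2 than that set by the array medians, and a value above 0 does not mean that most of the mRNA was on polysomes.

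Before centring, the gradients differed in how much signal lay on the polysomal side. The deposited values had been scaled by the authors on RNA spiked into each pool, and the part of this scaling was not tested. The median index over transcripts was -0.47 in replicate 1, -0.19 in replicate 2 and 1.77 in replicate 3. Replicate 3 stood apart, with 83.8% of transcripts above 0 against 37.6% and 44.7% in replicates 1 and 2. The mean of the 3 medians was 0.37 ± 1.22 (SD, n = 3), smaller than its SD, and an exact two-sided sign-flip permutation test against 0 gave p = 1, where 3 gradients cannot give a p below 0.25. Without replicate 3 the mean was -0.33. Of the signal summed over the 4 pools, the median transcript had 47.4%, 49.0% and 72.9% in pools 3 and 4. RNA of replicate 1 was labelled with Cy5 and that of replicates 2 and 3 with Cy3, and the part of dye in these values was not tested. In wild type the dyes were the opposite, Cy3 in replicate 1 and Cy5 in replicates 2 and 3. Cycloheximide replicates 1 and 2 had Cy5 and Cy3, and puromycin replicates 1 and 2 had Cy3 and Cy5. Medians of the untreated *smaug*-mutant arrays ranged from 10.9 to 12.7 on the log2 scale and SDs over transcripts from 1.06 to 2.03, the widest in pool 3 of replicate 2.

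The centred index spread over a wide range in every *smaug*-mutant gradient, and the long tail was on the polysomal side. The middle 90% of transcripts lay between -1.59 and 3.69 in replicate 1, between -2.49 and 2.69 in replicate 2 and between -2.71 and 4.11 in replicate 3. The SD over transcripts was 1.58, 1.57 and 2.04, so that replicate 3 was also the widest. Averaged over the 3 gradients, 1954 transcripts had an index above 1 and 1296 an index below -1, and means ran from -4.92 to 5.51. The SD of these means was 1.55. For a typical transcript the gradients differed by less than this, as the median SD between the 3 gradients was 0.680, with 5% of transcripts under 0.165 and 5% over 2.03. Across the 6524 transcripts, which are not independent observations, the index correlated between pairs of *smaug*-mutant gradients with Pearson's r of 0.705, 0.713 and 0.673. Replicate 1 was closer to wild-type replicate 1 (r = 0.847) than to either of the other *smaug*-mutant gradients, and all other pairs of a *smaug*-mutant with a wild-type gradient lay between 0.331 and 0.664.

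**Figure D1:**
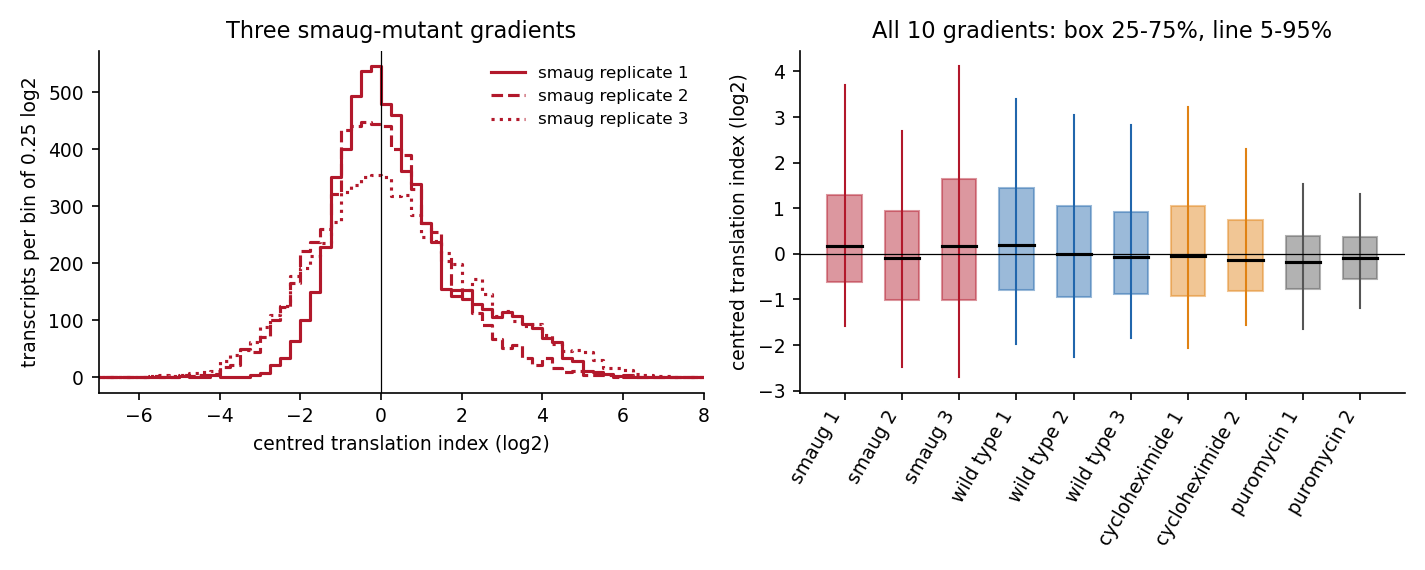
Left, number of transcripts (y axis, bins of 0.25 log2 units) at each centred translation index (x axis, log2) in *smaug*-mutant replicates 1, 2 and 3. Right, centred translation index (y axis, log2) in each of the 10 gradients, with a black line at the median, a box from the 25th to the 75th percentile and a thin line from the 5th to the 95th percentile over 6524 transcripts. The *smaug*-mutant gradients reach further on the polysomal side than on the free side, with a 95th percentile of 3.69, 2.69 and 4.11, and the puromycin gradients are the narrowest.

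The range between the 25th and 75th percentiles was 1.91, 1.95 and 2.64 in the *smaug*-mutant gradients, a mean of 2.17 ± 0.412 (SD, n = 3). The puromycin gradients had ranges of 1.16 and 0.935 and averaged 1.05 ± 0.159 (SD, n = 2). Every untreated *smaug*-mutant gradient was thus wider than either puromycin gradient, and the difference of 1.12 gave the smallest p that an exact two-sided permutation test allows here, 0.1. Wild-type gradients had a mean of 2.00 ± 0.225 (SD, n = 3) and cycloheximide gradients one of 1.77 ± 0.283 (SD, n = 2). These differed from the *smaug*-mutant mean by 0.164 and 0.398, less than the SD of the *smaug*-mutant gradients (exact two-sided permutation p = 0.7 and p = 0.6).

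Which transcripts had a mean index apart from 0, the value set by the array medians, was asked with limma. It tests the mean index of each transcript over the 3 gradients against 0 and adjusts p-values over all 6524 transcripts (Benjamini-Hochberg). At an adjusted p under 0.05 it called 1771 transcripts, or 27.1%. Of these, 1004 (15.4%) lay on the polysomal side and 767 (11.8%) on the free side. At an unadjusted p under 0.05 there were 1634 and 1313. All 1771 called transcripts had the same sign in the 3 gradients, as did 4421 (67.77%) of all transcripts, and the smallest mean among those called was 1.22 in size. The count depended on the gradients used, as limma called 0 transcripts without replicate 3, 359 without replicate 1 and 1133 without replicate 2. The counts at an unadjusted p under 0.05 differed less. They were 1309 above and 958 below 0 without replicate 3, 1211 and 1008 without replicate 1, and 1625 and 880 without replicate 2. On values as deposited, with no centring, the count was 928, with 812 on the polysomal and 116 on the free side.

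The called transcripts had different profiles over the gradient. Those called polysomal were depleted from pool 1, with median centred levels of -2.77, -1.65 and -2.15 in replicates 1, 2 and 3. In pool 3 they stood at 0.338, 1.04 and 0.812 and in pool 4 at 0.339, 0.638 and 1.02. Their level against the array median was thus lower in the free pool than in both polysomal pools, in each gradient. Those called free were above the median in pool 1, at 0.649, 0.414 and 0.972, and below it in pool 3, at -0.958, -2.72 and -1.41, and in pool 4, at -0.797, -1.36 and -1.55. These levels entered the calls and are a description only. A level depends on the probe as well as on the mRNA, so that they are read from pool to pool within a class and not between classes.

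Pool 2 did not enter the index. Its median centred level was -0.216, -0.147 and -0.260 for transcripts called polysomal and -0.358, -0.618 and -0.131 for those called free. In every gradient both classes thus stood in the mixed pool between their own levels in pools 1 and 3. The 4753 transcripts not called were at 0.114, 0.114 and 0.075 there. Of all signal, pools 3 and 4 held a median of 69.6%, 73.6% and 89.0% for transcripts called polysomal and 26.8%, 22.0% and 42.0% for those called free. The medians over all transcripts were 47.4%, 49.0% and 72.9%. Pools 1, 3 and 4 made the calls, so that these shares, unlike the levels in pool 2, are a description only.

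**Figure D2:**
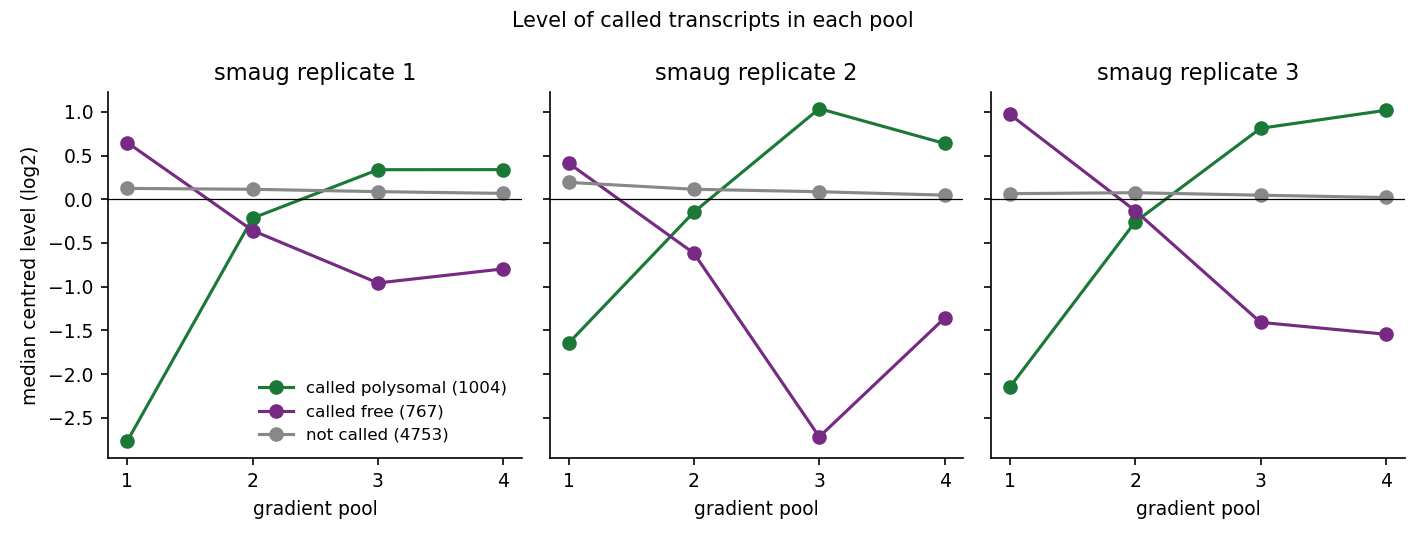
Median centred level (y axis, log2, 0 being the array median) in each gradient pool (x axis, pools 1 to 4) for the 1004 transcripts called polysomal, the 767 called free and the 4753 not called, in *smaug*-mutant replicates 1, 2 and 3. Transcripts called polysomal are lowest in pool 1, at -2.77, -1.65 and -2.15, and those called free are lowest in pool 3 or pool 4, down to -2.72 in replicate 2.

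The other gradients took no part in these calls, and the called transcripts were followed through them. In wild-type embryos 771 of the 1004 transcripts called polysomal (76.8%) had an index above 0 in all 3 gradients, where 32.8% of all transcripts did, and 24 had one below 0 in all 3. Their median index was 2.43, 1.44 and 1.66 in wild-type replicates 1, 2 and 3. Of the 767 called free, 585 (76.3%) were below 0 in all 3 wild-type gradients, against 29.1% of all transcripts, and 3 were above 0. Most transcripts at either end of the *smaug*-mutant distribution were thus on the same side in wild type.

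In the cycloheximide gradients, of the same mutant, 850 of the transcripts called polysomal (84.7%) were above 0 in both gradients, against a background of 35.5%. Of those called free, 675 (88.0%) were below 0 in both, against 41.3%. The puromycin gradients were different. There 274 of the transcripts called polysomal (27.3%) were above 0 in both gradients, against 28.7% of all transcripts, and 434 (43.2%) were below 0 in both, against 43.1%. Their median index was -0.145 and -0.237, beside -0.178 and -0.100 for all transcripts. Of the transcripts called free, 252 (32.9%) were below 0 in both puromycin gradients and 284 (37.0%) above 0 in both, with medians of -0.124 and 0.133. Both classes thus had medians within 0.25 of 0 in the puromycin gradients.

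**Figure D3:**
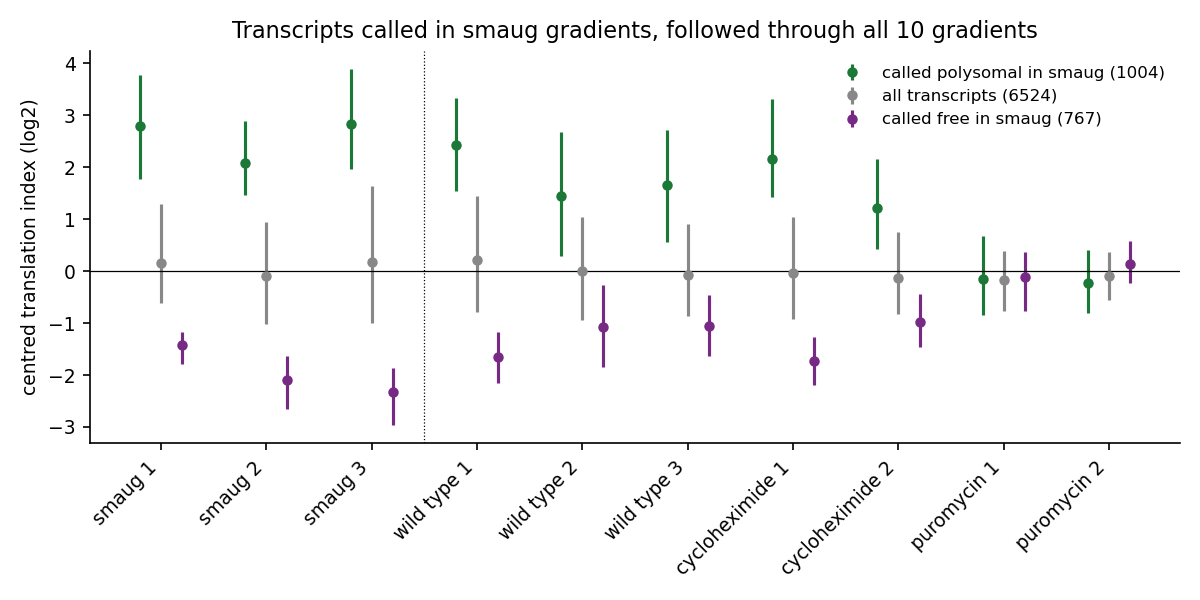
Centred translation index (y axis, log2) in each of the 10 gradients (x axis) for the transcripts called polysomal or free in *smaug*-mutant embryos and for all 6524 transcripts. Points are medians and lines run from the 25th to the 75th percentile, and the calls were made on the 3 gradients left of the dotted line. The called classes stay on their own side in the wild-type and cycloheximide gradients and meet near 0 in both puromycin gradients.

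Differences of single transcripts were tested in the same way, with limma on the centred index of 2 groups of gradients. Against wild type, 0 of 6524 transcripts (0%) passed an adjusted p of 0.05, and the unadjusted p was under 0.05 for 555 that were higher and 325 that were lower in *smaug*-mutant embryos. Against cycloheximide the count was also 0 (0%), and 156 higher and 110 lower transcripts had an unadjusted p under 0.05. Against puromycin 1104 transcripts passed, 711 of them (10.9%) higher and 393 (6.02%) lower in untreated embryos. These are changes relative to the bulk, which itself lay lower with puromycin, as the mean of the uncentred medians was -3.09 ± 0.041 (SD, n = 2). The test against wild type is also relative to the bulk and cannot show a shift shared by most transcripts. Uncentred medians averaged 0.37 ± 1.22 (SD, n = 3) in *smaug*-mutant and -0.38 ± 0.495 (SD, n = 3) in wild-type gradients. Their difference of 0.75 was smaller than the *smaug*-mutant SD and was not tested. With no centring 4 transcripts passed against wild type, and 703 were higher and 13 lower before adjustment of p. Without puromycin replicate 1 there were 0 calls, with 789 transcripts higher and 543 lower before adjustment of p, and without replicate 2 again 0, with 883 and 414. Without *smaug*-mutant replicate 1 there were 661 calls and without replicate 3 there were 549. The puromycin gradients differed from the untreated ones in buffer, lysate and an incubation of the lysate as well as in drug. The part of each was not tested. Across transcripts the puromycin gradients correlated with the untreated gradients at -0.147 to 0.074. The cycloheximide gradients, of that same buffer and incubation and from the same lysates, correlated with the untreated gradients at 0.382 to 0.808.

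Only part of the transcripts could be given a gene name. The files hold transcript identifiers, and RefSeq's gene table (assembly Release 6 plus ISO1 MT) gave a symbol for 35 of the 6524. Of these, 8 matched directly, and 27 matched through names of open reading frames that carry the transcript's identifier. Among the latter, 22 transcripts carry the reading frames of 2 or more genes on 1 mRNA, an arrangement called dicistronic when there is a pair. The named transcripts are therefore no sample of the whole, and statements about them do not extend to the transcripts without a name. Transcripts of *smaug* itself and of the maternal and zygotic marker genes considered were not among those named, so that genotype and stage were not checked here. In the named set 8 transcripts (22.9%) were called polysomal and 3 (8.57%) free, beside 15.4% and 11.8% of all transcripts. Their median index was 0.70, beside 0.15 for all transcripts.

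**Figure D4:**
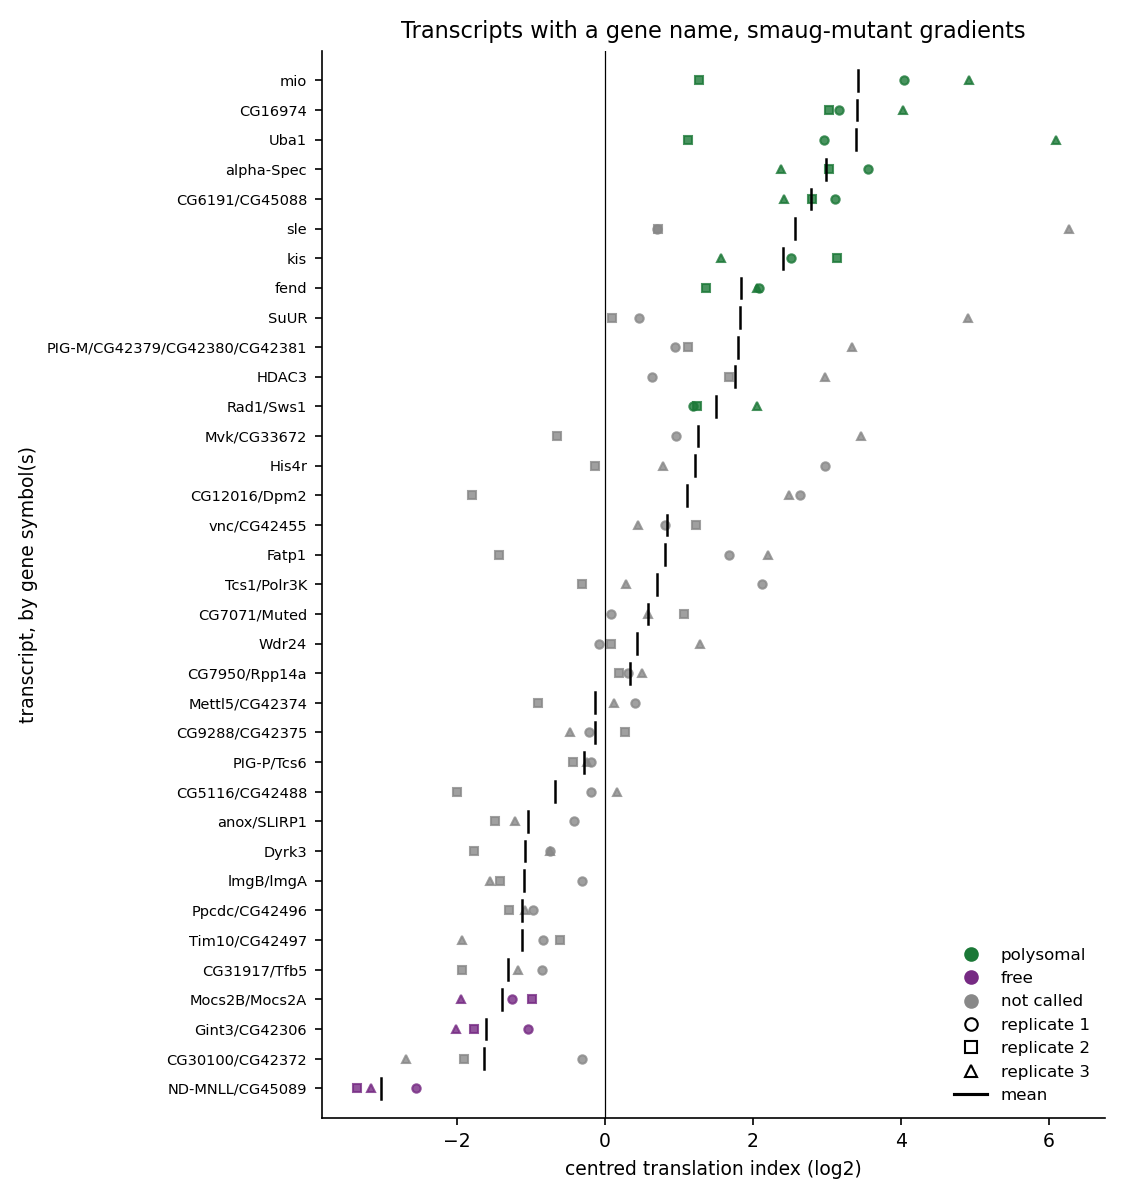
Centred translation index (x axis, log2) of the 35 transcripts with a gene name (y axis, sorted by mean) in *smaug*-mutant replicates 1 (circles), 2 (squares) and 3 (triangles), with the mean as a vertical bar. Green marks the 8 called polysomal, purple the 3 called free and grey the 24 not called. *sle*, *SuUR* and *Uba1* have their highest value in replicate 3, at 6.27, 4.90 and 6.10, whereas *ND-MNLL* lies below -2.5 in all 3 gradients.

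At the polysomal end stood *mio*, a subunit of the GATOR2 complex, which activates the growth-promoting kinase complex TORC1 and was named for a role in oocyte fate. Its index was 4.04, 1.27 and 4.93 in replicates 1, 2 and 3, high in all and lowest in replicate 2. The mean was 3.41 (SE 0.746, limma, adjusted p = 0.0296), which put *mio* above 96.9% of all transcripts. Pools 3 and 4 held 88.4%, 83.7% and 95.2% of its signal. Its mean log2 level, 10.7, was among the lowest 25% of transcripts. With puromycin its index was 1.32 and 0.379, below the untreated mean of 3.41, and this difference did not pass the threshold (limma, adjusted p = 0.142). *Wdr24*, which encodes another subunit of GATOR2, lay close to the median, at -0.083, 0.078 and 1.29. Its mean of 0.43 did not pass (limma, adjusted p = 0.466), and within each gradient it lay below *mio*. Of the 5 GATOR2 subunits considered these 2 had a named transcript.

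*CG16974* had an index of 3.16, 3.03 and 4.03, a narrower spread than *mio* at almost the same mean of 3.40 (SE 0.387, limma, adjusted p = 0.0134). It was 2.62, 1.57 and 1.68 in wild-type gradients and 2.84 and 2.42 with cycloheximide. With puromycin it was at -1.72 and -1.0, below every untreated value. The difference from puromycin was 4.77 (SE 0.540, limma, adjusted p = 0.0212), the largest among the named transcripts. *Uba1*, the ubiquitin-activating enzyme at the start of the ubiquitin pathway, had a mean of 3.39 but values of 2.96, 1.12 and 6.10. Its call was near the threshold (SE 0.942, limma, adjusted p = 0.0495), and replicate 3 was the highest by far. It was the only member with a name among 7 ubiquitin enzymes considered.

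Further transcripts called polysomal were those of *alpha-Spec*, *kis*, *fend* and *CG6191*. *alpha-Spec*, the alpha subunit of the spectrin membrane skeleton, had an index of 3.56, 3.03 and 2.38 (mean 2.99, SE 0.396, limma, adjusted p = 0.0149). *kis*, a chromatin remodeller of the CHD family, had 2.51, 3.13 and 1.57 (mean 2.40, SE 0.436, limma, adjusted p = 0.0213). For both, replicate 3 was the lowest of the 3 gradients, although that gradient had the widest distribution. *fend*, a gene of motor axon guidance, followed with 2.08, 1.36 and 2.06 (mean 1.83, SE 0.367, limma, adjusted p = 0.0249). *CG6191*, whose mRNA also carries the upstream reading frame *CG45088*, had 3.11, 2.80 and 2.42 (mean 2.78, SE 0.359, limma, adjusted p = 0.0143) and was the highest of the transcripts with 2 or more genes.

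Each of these lay above the median transcript with puromycin as well. The index of *kis* was 2.62 and 3.45 in the puromycin gradients, that of *alpha-Spec* 2.04 and 2.27 and that of *fend* 2.63 and 1.44. These values lay within or near the untreated ranges, and the differences of -0.63, 0.83 and -0.20 did not pass (limma, adjusted p = 0.484, adjusted p = 0.281 and adjusted p = 0.818). They are relative to a bulk that was mostly free with puromycin, where the median transcript had 17.6% and 14.0% of its signal in pools 3 and 4. *CG6191*/*CG45088*, at 0.813 and 0.540 with puromycin, was still above the median transcript but lower than in untreated embryos. That difference was 2.10 (SE 0.464, limma, adjusted p = 0.0356).

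*Rad1*, a subunit of the ring-shaped clamp of the DNA damage checkpoint, shares its mRNA with *Sws1*. The index of this transcript was 1.19, 1.24 and 2.05 in *smaug*-mutant gradients, a mean of 1.49 (SE 0.378, limma, adjusted p = 0.0397). The cycloheximide gradients, also mutant, gave 1.60 and 1.77. In wild type it was -0.571, -1.21 and -1.23, below 0 in all 3 and below every value of the mutant. The difference of 2.50 from wild type had a 95% interval of 1.36 to 3.63 before adjustment, but over all 6524 transcripts it did not pass (limma, adjusted p = 0.251). With puromycin the values of -0.793 and -0.953 were lower than in the untreated mutant by 2.37 (SE 0.493, limma, adjusted p = 0.0312).

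The most free of the named transcripts was that of *ND-MNLL*, a small subunit of the respiratory complex that oxidises NADH in mitochondria, with the upstream reading frame *CG45089*. Its index was -2.56, -3.35 and -3.16 (mean -3.02, SE 0.368, limma, adjusted p = 0.0134), and 0.9% of transcripts lay below it. Pools 3 and 4 held 14.9%, 10.6% and 26.9% of its signal. Its mean log2 level, 10.0, was among the lowest 25% of transcripts. Wild-type values of -3.03, -3.06 and -2.83 lay within the range of the mutant, and the difference from wild type was -0.05 with a 95% interval of -1.10 to 1.01. The cycloheximide gradients gave -4.33 and -1.89, 1 below and 1 above every untreated value. With puromycin its index was -1.47 and 0.463, and the difference of -2.52 narrowly missed the threshold (limma, adjusted p = 0.0528).

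The transcript of *Gint3* and *CG42306* had an index of -1.05, -1.78 and -2.01 (mean -1.61, SE 0.381, limma, adjusted p = 0.0348). That of *Mocs2B* and *Mocs2A*, which encode the large and small subunits of molybdopterin synthase, had -1.25, -0.989 and -1.95 (mean -1.40, SE 0.380, limma, adjusted p = 0.0471). In wild type the first lay between -0.920 and -0.743 and the second between -1.29 and -0.227, all below 0. Pools 3 and 4 held 32.8%, 31.2% and 50.6% of the signal of the first and 32.0%, 35.9% and 50.3% of that of the second. In replicate 3 this was more than the 33.3% and 31.4% in pool 1. On values as deposited, with no centring, neither passed (limma, adjusted p = 0.364 and adjusted p = 0.463). All 3 named transcripts called free carry the frames of 2 genes, but 22 of the 35 named transcripts carry 2 or more. Of these 22, 13.6% were called free, beside 11.8% of all transcripts.

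Several other named transcripts had negative indices in each gradient without passing the threshold. *Tim10*, a chaperone of the mitochondrial intermembrane space that shares its mRNA with *CG42497*, had -0.835, -0.613 and -1.93 (limma, adjusted p = 0.0954). The transcript of *CG31917* and *Tfb5*, a small subunit of the transcription and repair factor TFIIH, had -0.848, -1.93 and -1.17 (limma, adjusted p = 0.0567). *Ppcdc*, an enzyme of coenzyme A synthesis on an mRNA with *CG42496*, had -0.973, -1.30 and -1.08 (limma, adjusted p = 0.0622). Each transcript kept to 1 side of the median, with SDs between gradients of 0.707, 0.555 and 0.167 in this order.

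The pair *anox*, which encodes an acyl-CoA-binding protein, and *SLIRP1*, a mitochondrial RNA-binding protein, had -0.415, -1.49 and -1.21 (limma, adjusted p = 0.0976). In wild type the same transcript had 2.36, -1.45 and -0.014, so that the wild-type gradients lay on both sides of 0. *lmgB* and *lmgA*, the latter a subunit of the anaphase-promoting complex, had -0.311, -1.42 and -1.55 (limma, adjusted p = 0.0989). The kinase gene *Dyrk3*, which shares its mRNA with no other named gene, had -0.747, -1.77 and -0.744 (limma, adjusted p = 0.0918), the lowest mean, -1.09, among transcripts with 1 gene. *CG30100*/*CG42372* had the second lowest mean of all named transcripts, -1.64, from values of -0.317, -1.90 and -2.69 that did not pass (limma, adjusted p = 0.0731).

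For 4 more named transcripts above 0 in all gradients, replicate 3 was the highest. *sle*, which encodes a nucleolar protein, had 0.708, 0.711 and 6.27, and *SuUR*, the suppressor of underreplication of heterochromatin, had 0.464, 0.088 and 4.90. Neither passed (limma, adjusted p = 0.146 and adjusted p = 0.206), and both lay near the median transcript in the other gradients. *PIG-M*, a mannosyltransferase of GPI anchor synthesis on an mRNA with 3 other reading frames, had 0.951, 1.12 and 3.34 (limma, adjusted p = 0.0679). *HDAC3*, a histone deacetylase, had 0.638, 1.67 and 2.97 (limma, adjusted p = 0.0589). In the puromycin gradients *HDAC3* was at -1.19 and -1.5, lower by 3.11 (SE 0.738, limma, adjusted p = 0.0412).

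For 9 named transcripts the *smaug*-mutant gradients did not share a sign. *Fatp1*, a fatty acid transport protein, had 1.67, -1.43 and 2.20, and *CG12016* with *Dpm2*, a subunit of dolichol-phosphate mannose synthase, had 2.63, -1.80 and 2.49. In both, replicate 2 lay on the free side and the others on the polysomal side. *His4r*, the histone H4 gene expressed outside replication, had 2.98, -0.133 and 0.790 (mean 1.21, limma, adjusted p = 0.201). Its mean log2 level, 7.78, was the lowest of the named transcripts. *Mvk*, the mevalonate kinase gene, shares its mRNA with *CG33672* and had 0.963, -0.653 and 3.45.

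The others of the 9 were *Wdr24*, given above, and 4 mRNAs with the frames of a pair of genes. *Tcs1* with *Polr3K*, a subunit of RNA polymerase III, had 2.12, -0.307 and 0.287. *Mettl5*, an rRNA methyltransferase, with *CG42374* had 0.401, -0.906 and 0.117. *CG9288*/*CG42375* had -0.210, 0.273 and -0.478, and *CG5116*/*CG42488* had -0.193, -2.0 and 0.156. Replicate 2 was the lowest gradient in 3 of these 4 and the highest for *CG9288*/*CG42375*.

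A further 4 named transcripts had 1 sign in all 3 gradients and a mean within 1 of the median transcript. *vnc*, an N-terminal acetyltransferase gene, with *CG42455* had 0.817, 1.23 and 0.450 (limma, adjusted p = 0.134). *CG7071* with *Muted*, a subunit of the lysosome-related complex BLOC-1, had 0.078, 1.07 and 0.585. *CG7950* with *Rpp14a*, a protein of RNase P, had 0.307, 0.194 and 0.497, and *PIG-P*, of GPI anchor synthesis, with *Tcs6* had -0.188, -0.428 and -0.240. The last 2 varied little between gradients, with SDs of 0.153 and 0.126, and did not pass (limma, adjusted p = 0.480 and adjusted p = 0.543).

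Among the named transcripts the index was higher for genes of longer span. Of the 22 with 2 or more genes, 2 (9.09%) were called polysomal and 3 (13.6%) free, near the shares of 15.4% and 11.8% over all transcripts, with a median index of -0.21. Of the 8 matched directly, all single genes, 4 were called polysomal and 0 free, with a median of 2.48. The span is the length of the longest gene on the transcript in the RefSeq table, introns included, and is not the length of the mRNA. Of 9 transcripts spanning 5000 bases or more, 6 (66.7%) were called polysomal and 0 free, with a median index of 2.56. Of 9 from 2000 to under 5000 bases, 1 was called in each direction, with a median of 0.43, and of 17 under 2000 bases, 1 (5.88%) was called polysomal and 2 (11.8%) free, with a median of -0.14. Across the 35 transcripts Spearman's rho between span and mean index was 0.622, and it was 0.510, 0.454 and 0.569 in replicates 1, 2 and 3. Within the 22 transcripts with 2 or more genes it was 0.438, but there the median index of the 15 under 2000 bases, -0.29, was close to that of the 7 longer ones, -0.13. In the other gradients rho was 0.469 for wild type, 0.449 for cycloheximide and 0.499 for puromycin. These are descriptions, as the transcripts share arrays and were not drawn at random.

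**Figure D5:**
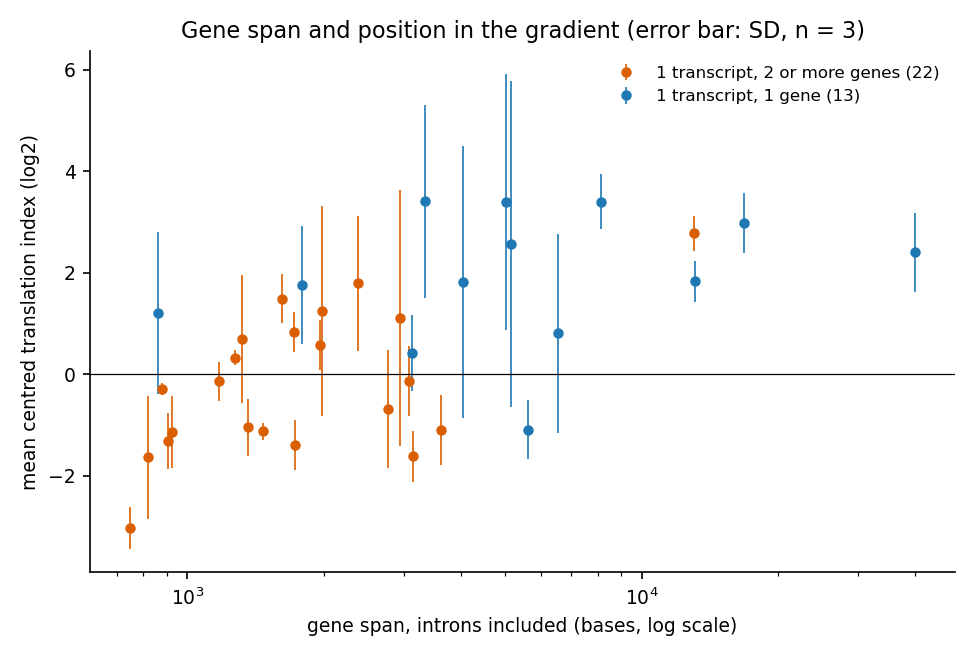
Mean centred translation index in *smaug*-mutant gradients (y axis, log2, bars are the SD over 3 gradients) against the span of the longest gene on the transcript with introns (x axis, bases, log scale) for the 35 named transcripts. Orange marks the 22 transcripts with 2 or more genes and blue the 13 with 1 gene. Transcripts of 5000 bases or more have a median index of 2.56 and those under 2000 bases one of -0.14.

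Beyond the named set, the ends of the distribution are given by identifier. FBtr0082699 had the highest mean, with 5.38, 4.88 and 6.27 in replicates 1, 2 and 3 (mean 5.51, SE 0.418, limma, adjusted p = 0.0119). It was as high in wild type, at 5.58, 6.16 and 5.94, but at 0.568 and -1.05 with puromycin (limma, adjusted p = 0.0212 for the difference). FBtr0081328 came next, at 5.85, 3.66 and 6.83 (mean 5.45, SE 0.660, limma, adjusted p = 0.0134). Its centred levels in pool 1 were -4.18, -1.40 and -4.35, so that replicate 2 was the least depleted from the free pool. In wild type it was at 5.28, 1.13 and 1.26, so that only replicate 1 reached the mutant's range, and the difference of 2.89 did not pass (limma, adjusted p = 0.375). With puromycin it was at -1.89 and -1.67.

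The lowest mean was that of FBtr0072372, at -5.39, -3.17 and -6.21 (mean -4.92, SE 0.644, limma, adjusted p = 0.0145), with -6.12, -3.01 and -4.23 in wild type. The cycloheximide gradients were higher, at -2.12 and 1.23, by a difference that did not pass (limma, adjusted p = 0.761). FBtr0070490 had -4.18, -3.74 and -5.44 (mean -4.45, SE 0.458, limma, adjusted p = 0.0119). Its wild-type values were -0.648, 3.21 and 2.39, all above those of the mutant, but the cycloheximide gradients, of the same mutant, gave 0.019 and -0.403. The difference of -6.10 from wild type did not pass (limma, adjusted p = 0.251), nor did that from cycloheximide (limma, adjusted p = 0.761). Both low transcripts were above the bulk with puromycin, at 2.30 and 3.84 for FBtr0072372 and at 4.08 and 2.85 for FBtr0070490. Their mean log2 levels, 8.89 and 9.71, were below the median of 11.15 for transcripts called free.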

How the data were processed

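RNA from each pool, spiked with Arabidopsis RNA, was hybridised to custom NimbleGen arrays in 1 dye per sample. The deposited log2 values were made by the authors with RMA quantile normalisation followed by a linear transformation of each array, with slope and offset, fitted on the spike-ins. Rows had been limited by the authors to transcripts expressed in both genotypes. Base 2 is assumed for the logarithm, as RMA works on that scale. The genome build is not given in the sources used here.

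Groups and biological replicate numbers were taken from the labels. All 6524 rows of the 40 arrays were used, with 0 columns left out and 0 values missing. A single value (1) was not above 0, and 6 were less than 4. The number of arrays limits the precision, and background signals were not used here. Each array was centred on its median, and the index was computed per gradient, whose pools come from 1 lysate. The functions lmFit and eBayes of limma 3.58.1 (R 4.3.3) tested it against 0 or between groups, with p-values adjusted by Benjamini-Hochberg over all rows and a threshold of 0.05. limma moderates the variance of every row with a shared prior, here an SD of 0.735, so that printed standard errors can be below those of the row alone. Correlations are descriptions. The scripts were tested on simulated data. Alternatives covered centring, scaling, the pools used, low rows, dye, the replicate block, the variance model and single replicates.

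Named transcripts are all rows with a symbol in the gene table, plus the 2 highest and 2 lowest called rows by identifier. The transcripts and lists were chosen with earlier results of these data known. Gene lists for GATOR2, the TRiC/CCT chaperonin, the cell cycle, chromatin, maternal and zygotic genes, glycolysis, histones, lipid droplets, the proteasome, ribosomal proteins, translation factors and ubiquitin enzymes had at most 40% of members named, under the 80% needed, so that counts over these lists are void. Only GATOR2, chromatin, histones and ubiquitin enzymes had a named member.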

Additional observations from a re-analysis of the deposited data

Results flagged for a closer look

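The centred index of 1104 transcripts differed between untreated *smaug*-mutant gradients and puromycin gradients in a test of the difference itself (limma, adjusted p under 0.05). Among the 35 named transcripts, 4 were higher in untreated embryos, beside 711 (10.9%) of all 6524 transcripts. The differences were 4.765 for *CG16974*, 3.105 for *HDAC3*, 2.367 for *Rad1*/*Sws1* and 2.103 for *CG6191*/*CG45088*, each on the log2 scale. In all 4, the 3 untreated gradients lay above both puromycin gradients. As stated above, these calls were lost when either puromycin gradient was left out, since 0 transcripts were then called.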

How the results depend on the processing

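The count of 1771 called transcripts stayed within 1.5 times under 9 of 15 alternatives. It became 928 with no centring (812 polysomal, 116 free), 2873 when all 10 gradients shared 1 spread (1551 and 1322) and 904 with dye as a covariate (671 and 233), and it ranged from 0, without replicate 3, to 1133, without replicate 2, when 1 gradient was left out. Without replicate 1 it was 359. Only replicate 1 of these gradients had Cy5, so that the dye covariate could not separate dye from gradient. The split between sides moved with the variance model, to 753 polysomal and 1201 free with trend and robust in eBayes, and with quantile normalisation, to 1216 and 1324, against 1004 and 767. Apart from fewer gradients, the cause was not tested. Treating the pools as unpaired, with no replicate block for the gradient, gave 2205 calls. Replicate numbers were not taken to pair *smaug*-mutant with wild-type gradients, since deviations of same-numbered gradients correlated at 0.263, 0.454 and -0.05, of which the last is not positive. These same-numbered gradients had opposite dyes, and whether they shared a batch was not tested. Dye was not entered in the comparisons between groups. Pairing with the drug gradients, which share 2 numbers, was not tested. With the replicate block the count against wild type and against cycloheximide remained 0, and that against puromycin went from 1104 to 0, on 2 gradients a group, with 1425 transcripts higher and 766 lower before adjustment of p.

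The count against wild type was 4 with no centring and 0 under the other 10 alternatives, and that against cycloheximide was 0 under all 10. Against puromycin there were 4712 calls with no centring, of which 4701 were higher in untreated embryos, where the medians differed by 3.45. Leaving out 1 gradient gave 0 calls, without either puromycin gradient, to 992. The uncentred median of 0.37 ranged from -0.3323, without replicate 3, to 0.7864, without replicate 1. No call of a named transcript reversed. All 11 lost their call without replicate 3, *CG16974* and *ND-MNLL* under that alternative only, whereas *Mocs2B*/*Mocs2A* and *Rad1*/*Sws1* lost it under 8 of 15. The alternative without the lowest 25% of transcripts by level left out *ND-MNLL*, *mio*, *alpha-Spec* and *fend*. Their mean log2 levels were 10.0, 10.7, 9.98 and 9.54, and they were tested under 14 alternatives only. Signal over background was not examined.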
